A study of Mus musculus with 4 samples.

Results

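The 9 interferon-induced GTPase genes were read in single cells of Pan02 tumours from mice treated with anti-PD-1, which blocks a checkpoint receptor of T cells, with anti-LIF, which blocks a cytokine, with both, or with IgG as control. They were Gbp2, Gbp3, Gbp4, Gbp5 and Gbp7 of the guanylate-binding protein family and Igtp, Iigp1, Irgm1 and Irgm2 of the immunity-related GTPase family, taken by symbol from 32285 measured genes. Pan02 is a mouse pancreatic cancer line, here grown under the skin of female C57BL/6 mice of 6 to 7 weeks, and treatment began at tumours of about 50 mm3. The anti-PD-1 group received 200 µg of antibody per injection, the anti-LIF group 25 mg/kg, the combo group both, and the control group 25 mg/kg IgG, each 3 times a week. Each group was 1 library made from 3 samples combined, so no animal could be told from another, no difference between groups was tested, and every interval in brackets is a 95% interval for counting error only. A subcutaneous graft of an established line is not a tumour of the pancreas.

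Both families are switched on mainly by interferon gamma, which is released by T and NK cells and acts through its receptor, the kinases Jak1 and Jak2 and, further down, the transcription factor Irf1. Guanylate-binding proteins are large GTPases that gather on vacuoles and membranes of microbes inside the cell and open the way to inflammasome caspases. Of the immunity-related GTPases, Irgm1, Irgm2 and Igtp sit on the cell's own membranes and hold the effector Iigp1 inactive there. In tumours these genes are often read as a sign that a cell has met interferon gamma.

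In GENCODE M21 on GRCm38, 4 of the 5 Gbp genes stand in a row on the plus strand of chromosome 3: Gbp5 at chr3:142493978-142522344, Gbp7 at chr3:142530342-142550149, Gbp3 at chr3:142560026-142573209 and Gbp2 at chr3:142620602-142638008. Gbp4 lies on the minus strand at chr5:105115767-105139586, and its span overlaps Gbp8 and Gbp9 on the same strand. Igtp lies at chr11:58199556-58207591 within the span of Irgm2 at chr11:58199618-58222782 but for its first bases, both on the plus strand, and Irgm1 lies on the minus strand at chr11:48861968-48871683. The counting rule was not given in the sources used here, so reads of these overlapping spans could be split between Igtp and Irgm2, and between Gbp4 and its neighbours. Of the runs of 90 bases in the last 500 bases of the members' coding transcripts, 8.22% for Gbp4 and 0.450% for Gbp3 occurred in transcripts of other genes, and none did for the other 7 genes.

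Since the members moved together in cancer cells, the bases before their starts are shown for 6 of them. RefSeq promoter windows on GRCm38.p6 were found for 7 of the 9 genes. Starts here and below are those of RefSeq, which are not all the GENCODE gene starts given above. Of the windows shown, those of Gbp5, Irgm1 and Irgm2 lie inside the GENCODE spans of these genes. The Gbp2 window runs past the GENCODE start of Gbp2. The 250 bases before the start were searched on both strands for TTCNNNGAA, the core of the gamma-activated site (GAS), and for 2 copies of GAAA with 2 bases between them, an interferon response element (ISRE), and the letters of each match are in capitals. The windows were chr3:142620413-142620662 for Gbp2, chr3:142496684-142496933 for Gbp5, chr3:142530086-142530335 for Gbp7, chr11:58199306-58199555 for Igtp and chr11:58214727-58214976 for Irgm2 on the plus strand, and chr11:48871421-48871670 on the minus strand for Irgm1.
Gbp2: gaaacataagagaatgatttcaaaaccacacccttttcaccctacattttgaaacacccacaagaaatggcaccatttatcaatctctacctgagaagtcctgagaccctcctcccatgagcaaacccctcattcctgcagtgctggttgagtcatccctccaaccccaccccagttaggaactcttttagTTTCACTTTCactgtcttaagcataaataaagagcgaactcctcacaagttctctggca
Gbp5: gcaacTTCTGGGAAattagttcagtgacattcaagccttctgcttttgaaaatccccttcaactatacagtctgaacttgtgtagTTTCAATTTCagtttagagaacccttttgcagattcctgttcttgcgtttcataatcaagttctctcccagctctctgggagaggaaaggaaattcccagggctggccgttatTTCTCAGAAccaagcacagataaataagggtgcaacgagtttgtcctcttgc
Gbp7: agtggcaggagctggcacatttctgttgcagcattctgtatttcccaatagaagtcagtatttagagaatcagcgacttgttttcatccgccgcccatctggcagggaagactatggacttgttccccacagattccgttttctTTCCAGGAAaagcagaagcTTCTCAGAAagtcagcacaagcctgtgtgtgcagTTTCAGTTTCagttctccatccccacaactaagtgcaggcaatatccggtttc
Igtp: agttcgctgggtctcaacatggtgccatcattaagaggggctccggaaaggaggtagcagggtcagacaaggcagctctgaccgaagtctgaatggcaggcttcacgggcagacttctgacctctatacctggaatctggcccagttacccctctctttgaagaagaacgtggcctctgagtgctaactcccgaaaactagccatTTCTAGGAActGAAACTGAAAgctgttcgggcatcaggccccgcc
Irgm1: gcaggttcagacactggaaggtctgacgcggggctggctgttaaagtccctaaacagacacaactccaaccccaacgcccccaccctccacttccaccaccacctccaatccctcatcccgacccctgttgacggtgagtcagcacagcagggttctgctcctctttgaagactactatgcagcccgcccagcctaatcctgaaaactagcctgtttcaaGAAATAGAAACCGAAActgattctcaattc
Irgm2: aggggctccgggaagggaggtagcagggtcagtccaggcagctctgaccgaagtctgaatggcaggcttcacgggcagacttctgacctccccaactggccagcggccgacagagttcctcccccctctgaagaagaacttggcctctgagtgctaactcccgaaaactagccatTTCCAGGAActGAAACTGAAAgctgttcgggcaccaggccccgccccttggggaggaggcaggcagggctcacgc

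All 7 genes with a window held at least 1 ISRE match, and Gbp5, Gbp7, Igtp and Irgm2 also held a GAS match. Among 32851 windows of the same length, 2.98% held the ISRE letters, 7.02% the GAS letters and 0.332% both. In Irgm1 2 ISRE matches that overlap each other begin 30 and 24 bases before the start. Igtp has a GAS match 45 and an ISRE match 34 bases before its start, and Irgm2 has the same pair at 75 and 64 bases. Their windows match at 134 of 220 aligned bases (60.9%). Gbp2 holds an ISRE match 59 bases before its start and Gbp7 holds one 53 bases before. In Gbp3 the window of the first of its 2 annotated starts held 2 ISRE matches and the second held none. A match is a description of the letters and not a measured binding site.

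After filtering, 14392 anti-PD-1, 14014 anti-LIF, 16397 combo and 18640 control cells remained, with a median of 1731 UMIs per cell under anti-PD-1, 1675 under anti-LIF, 2288 under combo and 2171 in control. A cell was placed in a class by its marker genes. None of the 9 genes and no gene of the interferon lists read below was used for that. Cancer cells were 1771 under anti-PD-1, 1459 under anti-LIF, 1827 under combo and 2742 in control. They carried 1053 to 1511 CPM of the keratin gene Krt18 and 2.21 to 4.02 CPM of Xist, the female-specific transcript, which host fibroblasts carried at 106 to 150 CPM. Libraries differed in make-up: T cells were 11.9% of anti-PD-1, 8.46% of anti-LIF, 9.20% of combo and 36.7% of control cells, and macrophages and monocytes were 32.4% of anti-PD-1, 33.0% of anti-LIF, 29.7% of combo and 3.92% of control cells. A further 144 cells with salivary gland genes occurred under combo alone. Between 277 and 392 cell barcodes were shared by any 2 libraries, at most 2.27% of the smaller one. Of the cells of a library, 16.1% to 30.9% stayed ungated. They passed no class, or more than 1 with none scoring far enough ahead of the next.

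In cancer cells all 9 genes were lower in each treated library than in control, and lower where LIF was blocked than under anti-PD-1 alone. For Irgm2 under anti-PD-1 the direction did not hold in every setting: its log2 ratio to control was -0.17, but 0.21 with cells thinned to equal depth and 0.09 at a mitochondrial limit of 10%. The summed level of the 9 genes was 1509 CPM [1493 to 1525] under anti-PD-1, 461 CPM [450 to 472] under anti-LIF, 430 CPM [422 to 438] under combo and 3064 CPM [3046 to 3083] in control cancer cells. The median log2 ratio to control was -0.83 under anti-PD-1, -2.59 under anti-LIF and -2.66 under combo, while the median over all genes measured was 0.17 under anti-PD-1, 0.20 under anti-LIF and 0.18 under combo. At least 2-fold lower were 3 of the 9 genes under anti-PD-1, 9 under anti-LIF and 9 under combo, against a background of 2.51%, 4.93% and 4.44% of all genes with at least 50 UMIs over the 2 libraries. The 3 comparisons share the control library.

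**Figure D1:**
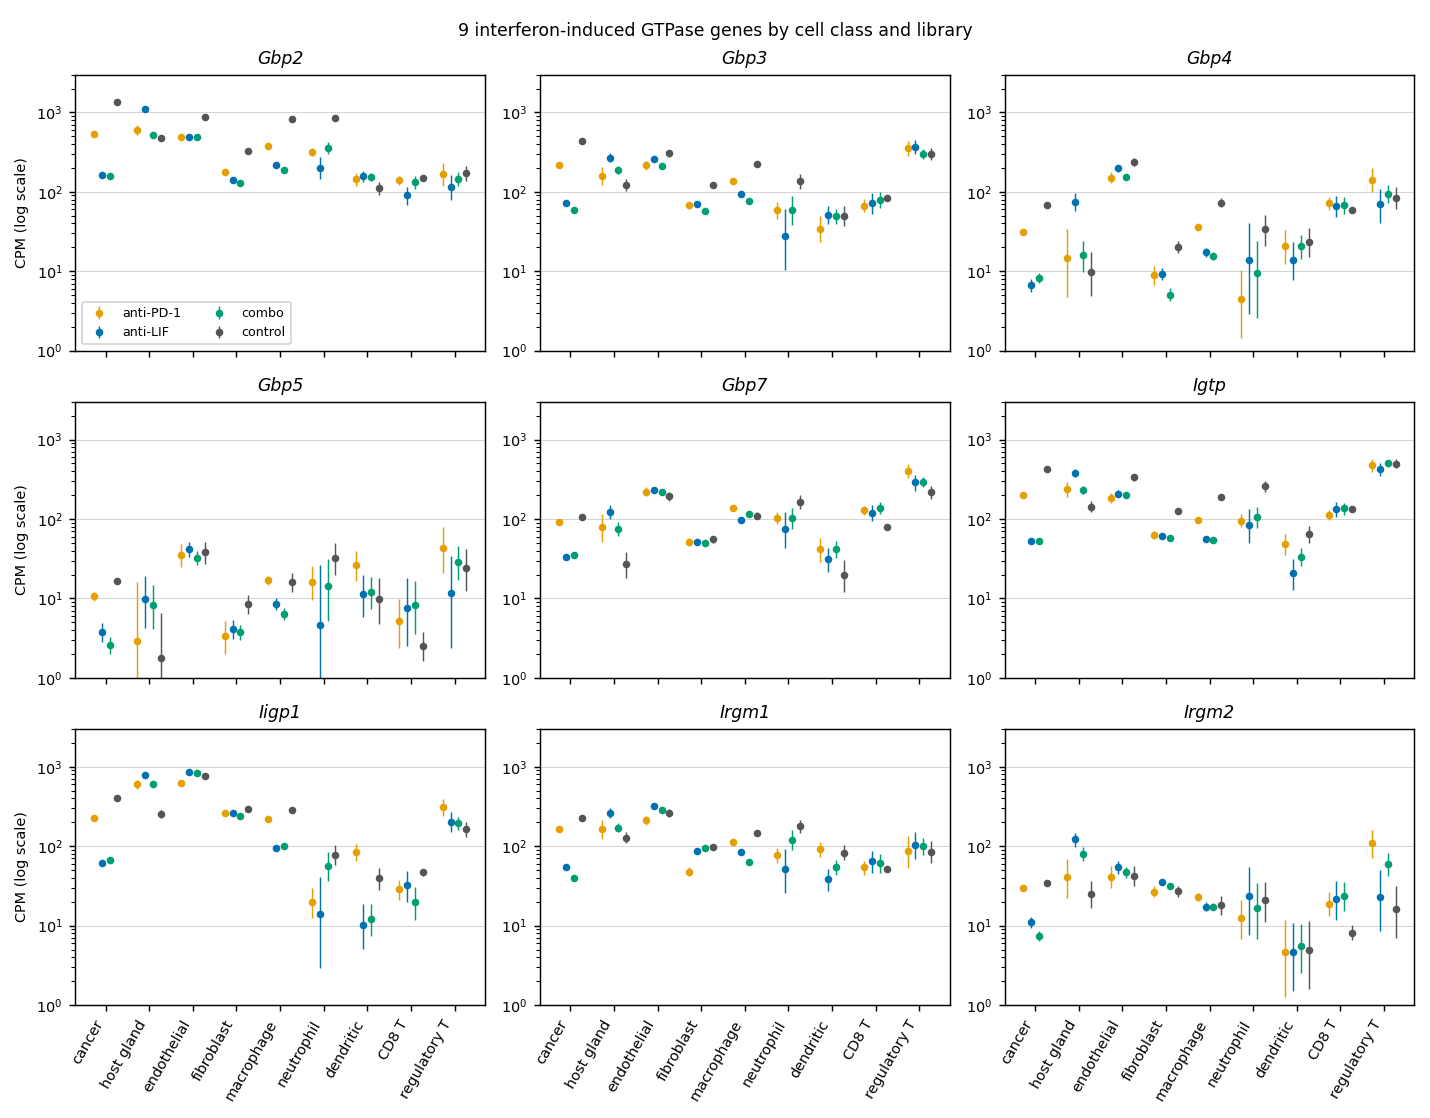
CPM of each of the 9 genes (log scale) in 9 cell classes, with 1 point per library in the order anti-PD-1, anti-LIF, combo and control, and bars for exact Poisson 95% intervals. In cancer cells control stands above the other libraries for all 9 genes, while in host gland cells the anti-LIF library stands above control for all 9 genes.

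Among the guanylate-binding proteins, Gbp2, which coats vacuoles of Toxoplasma, had 535 CPM under anti-PD-1, 165 CPM under anti-LIF, 158 CPM under combo and 1358 CPM in control cancer cells. Control was highest and the libraries with anti-LIF lay close together at the low end. The log2 ratio was -1.34 [-1.37 to -1.32] under anti-PD-1, -3.04 [-3.10 to -2.99] under anti-LIF and -3.11 [-3.15 to -3.06] under combo. Gbp3 had 217, 71.6 and 59.8 CPM under anti-PD-1, anti-LIF and combo and 431 CPM in control, with a log2 ratio of -0.99 under anti-PD-1, -2.59 under anti-LIF and -2.85 under combo. Gbp4, the member outside the chromosome 3 row, had 31.2, 6.69 and 8.23 CPM under anti-PD-1, anti-LIF and combo and 67.8 CPM in control. Its ratio under anti-LIF, -3.34 [-3.64 to -3.06], was the lowest of the 9 genes in that library, and its interval overlaps those of Gbp2 and Igtp. Gbp5, which in mouse macrophages helps the NLRP3 inflammasome to assemble, was sparse, with 10.7, 3.76 and 2.59 CPM under anti-PD-1, anti-LIF and combo against 16.5 CPM in control, and its ratio under anti-LIF rests on 59 UMIs under anti-LIF against 582 in control. Gbp7 had 91.0 CPM under anti-PD-1, 33.6 CPM under anti-LIF, 34.8 CPM under combo and 107 CPM in control. It was 1.18-fold lower under anti-PD-1 and 3.19-fold lower under anti-LIF, less than the other 4 Gbp genes in both libraries, although under anti-LIF its interval overlaps that of Gbp5.

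Among the immunity-related GTPases, Igtp, a regulator on the cell's own membranes, had 203 CPM under anti-PD-1, 53.6 CPM under anti-LIF, 52.9 CPM under combo and 424 CPM in control cancer cells. It was 2.09-fold lower than control under anti-PD-1, 7.91-fold lower under anti-LIF and 8.02-fold lower under combo. Iigp1, the effector that loads onto parasite vacuoles and lies on the plus strand at chr18:60376027-60392634, had 226, 61.2 and 66.3 CPM under anti-PD-1, anti-LIF and combo and 402 CPM in control. Its log2 ratio was -0.83 under anti-PD-1, -2.72 under anti-LIF and -2.60 under combo. Irgm1, a regulator, had 165, 55.0 and 39.9 CPM under anti-PD-1, anti-LIF and combo and 224 CPM in control, with log2 ratios of -0.44 under anti-PD-1, -2.02 under anti-LIF and -2.49 under combo. Irgm2, the third regulator, had 30.1 CPM under anti-PD-1, 10.95 CPM under anti-LIF, 7.48 CPM under combo and 33.9 CPM in control. Its ratio was nearest to 0 of the 9 genes under anti-PD-1, at -0.17 [-0.31 to -0.04], and under anti-LIF, at -1.63 [-1.87 to -1.40], where its interval overlaps that of Gbp7. As its span holds Igtp but for the first bases, part of the Igtp reads could stand in its count or part of its reads in that of Igtp. No run of 90 bases in the last 500 bases of the coding transcripts of Igtp or Irgm2 occurred in other genes. How the reads were split was not tested.

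Combo cancer cells stood well below anti-PD-1 cancer cells and near anti-LIF cancer cells. Against anti-PD-1 the log2 ratio of combo was between -1.38 for Gbp7 and -2.05 for Irgm1. Against anti-LIF it was -0.06 [-0.13 to 0.01] for Gbp2, -0.02 [-0.14 to 0.10] for Igtp and 0.05 [-0.10 to 0.21] for Gbp7, intervals that include 0. Irgm2 had -0.55 [-0.85 to -0.25], Gbp5 -0.54 [-1.06 to -0.0083], Irgm1 -0.46 [-0.59 to -0.33] and Gbp3 -0.26 [-0.37 to -0.15] under combo against anti-LIF, all below 0 beyond counting error. Iigp1 had 0.12 [0.0022 to 0.23], just above 0, and Gbp4 had 0.30 [-0.042 to 0.65].

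**Figure D2:**
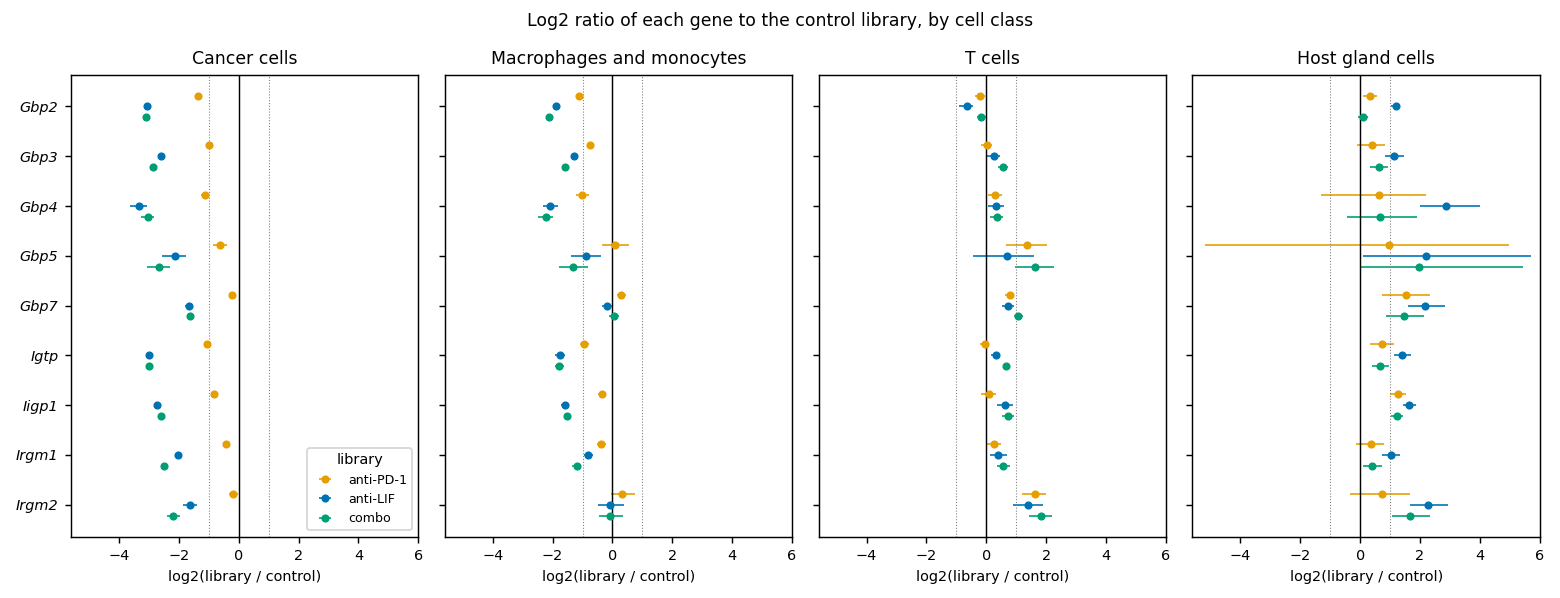
Log2 ratio of each gene to the control library (horizontal axis) in cancer cells, macrophages and monocytes, T cells and host gland cells, with exact 95% counting intervals as bars and dotted lines at 2-fold. Points of anti-LIF and combo lie left of -1 for all 9 genes in cancer cells, and points of anti-LIF lie right of 1 for all 9 genes in host gland cells.

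Cancer cells differed widely among themselves. To compare cells at equal depth, each cell of at least 1000 UMIs was thinned to 1000 UMIs. The share with a UMI of any of the 9 genes was then 50.7% [48.3 to 53.1] under anti-PD-1, 23.5% [21.2 to 25.9] under anti-LIF, 21.7% [19.7 to 23.7] under combo and 78.0% [76.3 to 79.5] in control cancer cells, and the median depth of all cancer cells before thinning was 9000 UMIs under anti-PD-1, 6269 under anti-LIF, 11008 under combo and 11699 in control. Dendritic cells, a class low in these genes in each library, gave 26.9% under anti-PD-1, 22.6% under anti-LIF, 25.0% under combo and 27.6% in control at median depths of 3019 to 4132 UMIs. The anti-LIF and combo shares of cancer cells lay near those of that class. Without thinning, 16.5% of anti-PD-1, 41.6% of anti-LIF, 37.9% of combo and 2.14% of control cancer cells of that depth had no UMI of any member.

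**Figure D3:**
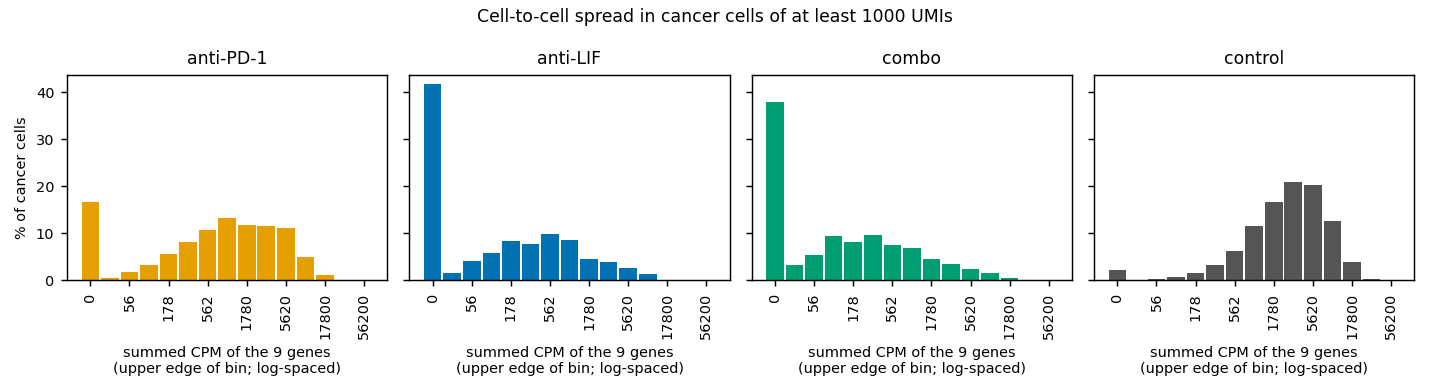
Percent of cancer cells of at least 1000 UMIs (vertical axis) by their summed CPM of the 9 genes in log-spaced bins (horizontal axis), 1 panel per library. The bar at 0 reaches 41.6% under anti-LIF and 37.9% under combo and stands at 2.14% in control.

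A minority of cancer cells under anti-LIF and combo kept high GTPase RNA. Each cell's UMIs were split at random into 2 parts, and cells were ranked by the 9 genes on one part and described on the other. The top 10% carried 6608 CPM of the 9 genes under anti-PD-1, 3126 CPM under anti-LIF, 3825 CPM under combo and 9956 CPM in control, while all other cells carried 1000 CPM under anti-PD-1, 189 CPM under anti-LIF, 166 CPM under combo and 2414 CPM in control. The top cells under anti-LIF and combo thus lay above the mean of the remaining control cells. Irf1 in the top cells was 671 CPM under anti-PD-1, 603 CPM under anti-LIF, 382 CPM under combo and 863 CPM in control, and in the other cells it was 297 CPM under anti-PD-1, 129 CPM under anti-LIF, 126 CPM under combo and 530.3 CPM in control. H2-K1, an MHC class I heavy chain, was 2692 CPM in the top and 766 CPM in the other anti-LIF cells, and under combo it was 2835 CPM in the top and 698 CPM in the other cells. Summed cell cycle genes were lower in the top cells of each library, at 1402, 1872, 1488 and 1031 CPM in anti-PD-1, anti-LIF, combo and control, against 1762, 2482, 2345 and 1388 CPM in the other cells of the same 4 libraries. Krt18 in the top cells was 1027 CPM under anti-PD-1, 1443 CPM under anti-LIF, 1316 CPM under combo and 1259 CPM in control. Markers of other classes did not all stay level. The T cell gene Cd3e had 9 UMIs (9.22 CPM) in the top and 14 (1.38 CPM) in the other anti-PD-1 cells, and 4 (5.83 CPM) in the top and 10 (1.41 CPM) in the other anti-LIF cells. In combo the collagen gene Col3a1 had 297 CPM in the top and 149 CPM in the other cells, the macrophage gene C1qb had 50.2 and 33.0 CPM, and Xist had 10.5 and 3.66 CPM. The part of such RNA in the high cells was not tested.

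The cancer cells fell into 4 main Leiden clusters, built without the 9 genes and the other listed interferon genes, and their mix differed between libraries. Cluster 2, led by the proliferin genes Prl2c3 and Prl2c2 and by mitosis genes such as Ube2c, was 9.99% of anti-PD-1, 41.9% of anti-LIF, 31.4% of combo and 3.79% of control cancer cells. Its summed level of the 9 genes was the lowest of the 4 clusters in each library, at 328, 166 and 126 CPM under anti-PD-1, anti-LIF and combo and 943 CPM in control. Cluster 7 was led by Enpp2, Mgp, C3, Dpt and Dcn, of which Dpt and Dcn stood in the fibroblast marker list but were not used to class cells. Its gated cells had 911 to 1088 CPM of Krt18, which was itself a marker of the gate, and 1.503 to 4.10 CPM of Xist, which was not. Over all cells of the cluster, gated or not, Krt18 was 519 CPM and Xist 1.73 CPM. Cluster 7 was 19.0% of anti-PD-1, 7.13% of anti-LIF, 10.6% of combo and 31.7% of control cancer cells and had the highest level, at 1930, 1032 and 1099 CPM under anti-PD-1, anti-LIF and combo and 3262 CPM in control. All these shares are of gated cells, and the gate kept the clusters unequally. In control it kept 868 of 3349 cells of cluster 7 and 104 of 117 of cluster 2. Under anti-LIF it kept 104 of 236 cells of cluster 7 and 612 of 729 of cluster 2. Cluster 1, led by the contractile genes Tagln and Acta2, had 1631, 756 and 489 CPM under anti-PD-1, anti-LIF and combo and 3143 CPM in control. The chemokine genes Cxcl9 and Cxcl10 were also among its leading genes. Neither was in the lists left out of the clustering, so the clusters were not free of all interferon-related genes. Cluster 0, of shallow cells with RNA of several other classes among its leading genes, had 1135, 629 and 759 CPM under anti-PD-1, anti-LIF and combo and 2865 CPM in control.

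Within each of these clusters the median of the 9 genes was below control in each treated library as well. In cluster 7 Gbp7 and Irgm2 were not lower under anti-PD-1: Gbp7 had 85.7 CPM under anti-PD-1 against 78.3 CPM in control, and Irgm2 had 41.05 CPM under anti-PD-1 against 40.7 CPM in control. The median log2 ratio under anti-PD-1, anti-LIF and combo was -0.73, -1.79 and -2.64 in cluster 1, -1.61, -2.69 and -3.10 in cluster 2, -0.48, -1.34 and -1.14 in cluster 7 and -1.20, -1.69 and -1.92 in cluster 0. Weighted to the cluster mix of control, the summed level was 52.2% of control under anti-PD-1, 26.4% under anti-LIF and 24.0% under combo. With each library's own mix it was 47.2% under anti-PD-1, 16.3% under anti-LIF and 16.2% under combo. Both mixes count gated cells only, and how far they depend on the gate was not tested. These clusters were chosen for comparison after their make-up was seen.

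**Figure D4:**
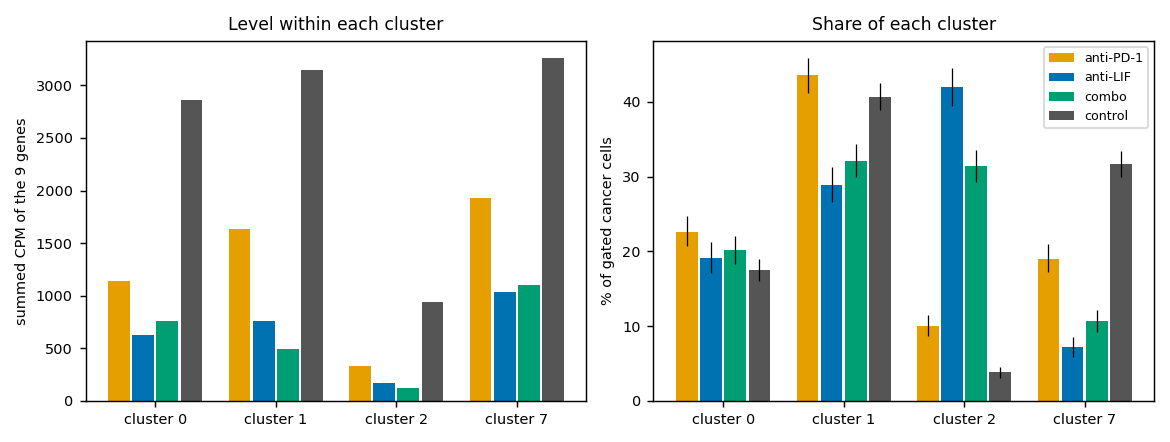
Left, summed CPM of the 9 genes in gated cancer cells of each of 4 clusters by library; right, percent of gated cancer cells in each cluster with exact 95% binomial intervals. Control bars are the highest in every cluster on the left, and cluster 2 holds 41.9% of anti-LIF and 3.79% of control cells on the right.

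The rest of the pathway in cancer cells was read from gene lists. Of 10 other GTPase family genes with at least 50 UMIs, 3 were at least 2-fold lower than control under anti-PD-1, 8 under anti-LIF and 7 under combo, and none was 2-fold higher, beside the backgrounds of 2.51%, 4.93% and 4.44%. Gbp8 had 6.08, 1.592 and 1.503 CPM under anti-PD-1, anti-LIF and combo and 21.8 CPM in control, and Gbp10 had 2.50, 0.382 and 0.752 CPM under anti-PD-1, anti-LIF and combo against 5.30 CPM in control. Irgq, a family member not known to need interferon, had 13.5, 13.3 and 11.8 CPM under anti-PD-1, anti-LIF and combo against 12.7 CPM in control. Of the interferon gamma pathway, Irf1 had 331 CPM under anti-PD-1, 167 CPM under anti-LIF and 143 CPM under combo, against 567 CPM in control. Irf9 had 32.0 CPM under anti-PD-1, 21.01 CPM under anti-LIF and 19.5 CPM under combo, against 41.2 CPM in control.

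No gene of the receptor or its kinases reached 2-fold in cancer cells. Ifngr1 had 58.7 CPM under anti-PD-1, 50.4 CPM under anti-LIF, 55.2 CPM under combo and 60.1 CPM in control, and Ifngr2 had 58.7, 57.7, 55.6 and 46.0 CPM in anti-PD-1, anti-LIF, combo and control. Jak1 had 180, 157, 153 and 197 CPM in anti-PD-1, anti-LIF, combo and control, and Jak2 had 55.8, 52.2, 52.0 and 76.3 CPM in anti-PD-1, anti-LIF, combo and control. Beside the same backgrounds of 2.51%, 4.93% and 4.44% of all genes under anti-PD-1, anti-LIF and combo, all 8 MHC class I genes were 2-fold lower under anti-LIF and under combo and none under anti-PD-1, with median log2 ratios of -0.62, -1.65 and -2.03 under anti-PD-1, anti-LIF and combo. Of 12 type I interferon genes, 2 under anti-PD-1, 6 under anti-LIF and 6 under combo were 2-fold lower, and Ifit3 had 19.4, 5.09 and 7.14 CPM under anti-PD-1, anti-LIF and combo against 42.2 CPM in control. Of the proteins GBPs work with, Casp4, which binds bacterial lipopolysaccharide, was the 1 gene of 7 that was 2-fold lower under anti-LIF and the 1 of 8 under combo, at 31.7, 17.96 and 21.04 CPM under anti-PD-1, anti-LIF and combo and 45.2 CPM in control. Of 9 autophagy partners of these GTPases none reached 2-fold in any library, and Gabarap had 408, 366, 446 and 432 CPM in anti-PD-1, anti-LIF, combo and control.

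Interferon gamma RNA was scarcer in every treated library. Ifng had 710 UMIs over all cells of anti-PD-1, 420 under anti-LIF, 380 under combo and 3663 in control, or 11.03 CPM, 7.79 CPM, 4.23 CPM and 35.4 CPM in the same 4 libraries. In T cells it had 215 CPM [198 to 233] under anti-PD-1, 183 CPM [163 to 204] under anti-LIF, 107 CPM [95.4 to 120] under combo and 193 CPM [186 to 200] in control. In CD8 T cells it had 252 CPM [229 to 277] under anti-PD-1, 318 CPM [277 to 365] under anti-LIF, 195 CPM [168 to 225] under combo and 208 CPM [199 to 217] in control. The share of T cells was also lower in each treated library, at 11.9% under anti-PD-1, 8.46% under anti-LIF and 9.20% under combo against 36.7% in control. The share was higher under combo than under anti-LIF, while the Ifng totals were lower under combo. With no replicate libraries, the part of the T cell share in the Ifng totals was not tested. The part of Ifng or of the T cell share in the GTPase levels was not tested.

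In host gland cells the summed level of the 9 genes was above control in each treated library. This class of 76 anti-PD-1, 168 anti-LIF, 191 combo and 133 control cells had Epcam and the milk protein gene Csn3 among its leading genes and Xist at 138 to 279 CPM, against at most 4.02 CPM in cancer cells. The summed level of the 9 genes was 1900 CPM [1757 to 2051] under anti-PD-1, 3125 CPM [3005 to 3248] under anti-LIF, 1884 CPM [1810 to 1960] under combo and 1190 CPM [1127 to 1256] in control. In anti-LIF the level was above that of any other class in the library and its interval overlaps that of control cancer cells. The median log2 ratio was 0.72 [-0.34 to 1.67] under anti-PD-1, 1.65 [1.44 to 1.85] under anti-LIF and 0.67 [0.39 to 0.96] under combo, where each interval is that of the gene at the median and the one under anti-PD-1 includes 0. Without the 1% of cells with most UMIs the combo median was 0.23 [-0.09 to 0.56], and with cells thinned to equal depth it was 0.27 [-3.73 to 6.42]. Of the members with at least 50 UMIs over 2 libraries, at least 2-fold higher were 2 of 6 under anti-PD-1, 8 of 8 under anti-LIF and 3 of 7 under combo, against a background of 5.93%, 5.14% and 4.88%.

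In these gland cells Iigp1 had 602 CPM under anti-PD-1, 790 CPM under anti-LIF, 598 CPM under combo and 252 CPM in control, with a log2 ratio of 1.26 [0.99 to 1.52] under anti-PD-1, 1.65 [1.44 to 1.85] under anti-LIF and 1.24 [1.05 to 1.45] under combo. Gbp2 had 599, 1090 and 516 CPM under anti-PD-1, anti-LIF and combo and 479 CPM in control, and its ratio under combo, 0.11 [-0.06 to 0.27], includes 0. Irgm2 had 40.7, 121 and 80.6 CPM under anti-PD-1, anti-LIF and combo and 25.1 CPM in control, and Gbp7 had 78.5, 123 and 75.2 CPM under anti-PD-1, anti-LIF and combo and 26.9 CPM in control. Gbp4 under anti-LIF rests on 62 UMIs against 11 in control, and Gbp5 under anti-LIF on 8 against 2 in control. Type I interferon genes were also higher: 6 of 8 under anti-PD-1, 6 of 8 under anti-LIF and 10 of 10 under combo were at least 2-fold higher than control, beside the same backgrounds of 5.93%, 5.14% and 4.88%, with Rsad2 at 212, 167 and 362 CPM under anti-PD-1, anti-LIF and combo and 26.9 CPM in control. The MHC class I genes had median log2 ratios of 0.39 under anti-PD-1, 0.51 under anti-LIF and 0.24 under combo, and none reached 2-fold. The median of the 9 genes in gland cells was above 0 in all 3 comparisons, and that in cancer cells below 0, with the limits given above for anti-PD-1 and combo. This difference was not tested. Nothing in the labels says where in or beside the tumour these cells lay.

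Endothelial cells held these genes high in every library. Their summed level was 2176 CPM under anti-PD-1, 2674 CPM under anti-LIF, 2467 CPM under combo and 3054 CPM in control, and no member was at least 2-fold lower in any comparison, where the background was 2.44%, 3.19% and 2.93%. Iigp1 had 630, 863, 831 and 770 CPM in anti-PD-1, anti-LIF, combo and control, and Irgm1 had 213, 323, 282 and 261 CPM in anti-PD-1, anti-LIF, combo and control. Gbp2 and Igtp stood apart from them. Gbp2 had 485, 494 and 494 CPM under anti-PD-1, anti-LIF and combo and 872 CPM in control, and Igtp had 184, 208 and 201 CPM under anti-PD-1, anti-LIF and combo and 336 CPM in control. The median log2 ratio over the 9 genes was -0.29 under anti-PD-1, 0.14 under anti-LIF and -0.23 under combo. With cells thinned to equal depth the anti-LIF median was -0.25.

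In fibroblasts the summed level was 707 CPM under anti-PD-1, 722 CPM under anti-LIF, 665 CPM under combo and 1072 CPM in control. The median log2 ratio was -0.85 under anti-PD-1, -0.76 under anti-LIF and -1.09 under combo, and 4 of 9 genes under anti-PD-1, 4 under anti-LIF and 5 under combo were at least 2-fold lower, beside 3.62%, 3.49% and 3.86% of all genes. With cells thinned to equal depth the median was -0.32 [-1.52 to 0.80] under anti-PD-1, -0.71 [-1.07 to -0.33] under anti-LIF and -0.30 [-0.50 to -0.08] under combo. Gbp2 had 179, 140 and 128 CPM under anti-PD-1, anti-LIF and combo and 324 CPM in control. Igtp had 63.2, 61.9 and 57.6 CPM under anti-PD-1, anti-LIF and combo and 127 CPM in control. Iigp1 differed little, at 258, 260, 238 and 290 CPM in anti-PD-1, anti-LIF, combo and control. Gbp7 had 51.4, 51.7, 50.1 and 55.6 CPM in anti-PD-1, anti-LIF, combo and control, and Irgm2 had 26.8, 35.1, 31.2 and 26.9 CPM in anti-PD-1, anti-LIF, combo and control. Irgm1 was the exception among treated libraries, at 47.9 CPM under anti-PD-1, 88.2 CPM under anti-LIF and 94.7 CPM under combo, against 99 CPM in control.

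In macrophages and monocytes the summed level was 1160 CPM under anti-PD-1, 688 CPM under anti-LIF, 638 CPM under combo and 1881 CPM in control. The class lay in different clusters by library. Cluster 6 held 160 anti-PD-1, 967 anti-LIF, 1032 combo and 17 control cells, and cluster 11 held 229 anti-PD-1, 577 anti-LIF, 825 combo and 5 control cells, so that these cells had almost no counterpart in control. The part of this make-up in the class levels was not tested. The median log2 ratio was -0.37 under anti-PD-1, -1.27 under anti-LIF and -1.52 under combo. At least 2-fold lower were 2 of 9 genes under anti-PD-1, 5 under anti-LIF and 7 under combo, against a background of 5.35%, 7.29% and 7.79%. Gbp2 had 381, 220 and 190 CPM under anti-PD-1, anti-LIF and combo and 819 CPM in control, and Iigp1 had 220, 94.2 and 99.3 CPM under anti-PD-1, anti-LIF and combo and 284 CPM in control. Gbp4 had 36.1, 17.3 and 15.5 CPM under anti-PD-1, anti-LIF and combo and 72.8 CPM in control. Gbp7 and Irgm2 lay nearest to control, with Gbp7 at 136, 97.8, 115 and 111 CPM and Irgm2 at 22.8, 17.3, 17.2 and 18.0 CPM in anti-PD-1, anti-LIF, combo and control. RNA of cancer cells could be read in this class, and free RNA was not told from doublets. It was scaled by Krt18 in gated cancer cells. As Krt18 was a marker of that gate, the shares here and for neutrophils and T cells below could be too low. How far was not tested. Krt18 stood at 6.83% of its cancer cell level under anti-PD-1, 3.77% under anti-LIF, 5.21% under combo and 11.7% in control. That share of the cancer cell profile amounts to 103 CPM of the 9 genes under anti-PD-1, 17.4 CPM under anti-LIF, 22.4 CPM under combo and 358 CPM in control. With it taken away, the summed level was 1057, 671 and 615 CPM under anti-PD-1, anti-LIF and combo and 1523 CPM in control, and the median log2 ratio was -0.24 under anti-PD-1, -0.95 under anti-LIF and -1.27 under combo. Values within a cluster were compared in clusters 5, 12 and 15, since clusters 6 and 11 had too few control cells. Within cluster 12, the largest of this class, the median was -0.32 under anti-PD-1, -0.67 under anti-LIF and -1.04 under combo. Iigp1 turned round within cluster 15, where its log2 ratio was 1.17 under anti-LIF and 1.35 under combo.

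Neutrophils were shallow, with a median of 849 to 1014 UMIs, and 6 of the 9 genes had at least 50 UMIs in each comparison. Their summed level was 707 CPM under anti-PD-1, 497 CPM under anti-LIF, 846 CPM under combo and 1755 CPM in control, and 5 of the 6 genes under anti-PD-1, 6 under anti-LIF and 3 under combo were at least 2-fold lower, beside 8.21%, 12.4% and 5.59% of all genes. The combo level rests on few cells: without the 1% of cells with most UMIs, which left 333 of 337 cells, it was 540.1 CPM, and the median log2 ratio was -1.84 in place of -1.09. With classes from Leiden clusters the combo level was 508 CPM and the median -2.04, and with a stricter gate it was 555 CPM and -1.67. Gbp2 had 319, 202 and 359 CPM under anti-PD-1, anti-LIF and combo and 851 CPM in control. Krt18 stood at 10.7% of the cancer cell level in anti-PD-1 neutrophils, 3.41% under anti-LIF, 5.57% under combo and 13.1% in control. Less that share of the cancer cell profile the summed level was 550, 481 and 822 CPM under anti-PD-1, anti-LIF and combo and 1354 CPM in control.

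T cells did not follow the cancer cells. The summed level was 784 CPM [752 to 818] under anti-PD-1, 833 CPM [791 to 878] under anti-LIF, 1031 CPM [994 to 1070] under combo and 691 CPM [678 to 705] in control, and the median log2 ratio was 0.27 under anti-PD-1, 0.40 under anti-LIF and 0.67 under combo. No member was at least 2-fold lower, beside 2.86%, 5.98% and 4.35% of all genes, and 2 under anti-PD-1, 1 under anti-LIF and 3 under combo were at least 2-fold higher, beside 3.88%, 6.06% and 6.11%. Irgm2 was at least 2-fold higher in each treated library, Gbp5 under anti-PD-1 and combo, and Gbp7 under combo. Gbp2 had a log2 ratio below 0 in all 3 treated libraries, at -0.21 under anti-PD-1, -0.66 under anti-LIF and -0.16 under combo. Krt18 in control T cells stood at 5.19% of its cancer cell level, which amounts to 159 of the 691 CPM of the 9 genes. The make-up of the class differed between libraries. Of the Leiden clusters of T cells, cluster 18 held 207 anti-PD-1, 63 anti-LIF, 57 combo and 1777 control cells. Cluster 21 held 411 anti-PD-1, 598 anti-LIF, 814 combo and 1228 control cells. The part of this make-up in the T cell levels was not tested.

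The T cell values depended on the kind of T cell. Regulatory T cells had a Foxp3 UMI and none of Cd8a or Cd8b1. Conventional CD4 T cells had Cd4 and none of Foxp3, Cd8a or Cd8b1. CD8 T cells had Cd8a or Cd8b1 and neither Cd4 nor Foxp3. The remaining T cells fell in no subset. In shallow cells Foxp3 can be missed, so the regulatory T cells counted are those in which it was read. Regulatory T cells carried 2097 CPM [1915 to 2293] under anti-PD-1, 1607 CPM [1457 to 1769] under anti-LIF, 1715 CPM [1614 to 1821] under combo and 1558 CPM [1450 to 1672] in control, above conventional CD4 T cells, at 694, 719, 842 and 743 CPM in anti-PD-1, anti-LIF, combo and control, and above CD8 T cells, at 627, 606, 663 and 616 CPM in anti-PD-1, anti-LIF, combo and control. Their Gbp3 was 355, 366, 298 and 301 CPM in anti-PD-1, anti-LIF, combo and control, the highest mean over libraries of the classes read, and their Igtp was 477, 424, 500.4 and 496 CPM in anti-PD-1, anti-LIF, combo and control. The corresponding Igtp levels of CD8 T cells were 114, 133, 136 and 135 CPM in anti-PD-1, anti-LIF, combo and control. Within CD8 T cells the median log2 ratio to control was 0.09 under anti-PD-1, 0.17 under anti-LIF and 0.20 under combo, nearer to 0 than over all T cells. Regulatory T cells were 128 of 1710 T cells under anti-PD-1, 141 of 1185 under anti-LIF, 256 of 1509 under combo and 233 of 6837 in control.

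Dendritic cells held the 9 genes low, at 495, 338, 383 and 407 CPM in anti-PD-1, anti-LIF, combo and control. Iigp1 in them had 83.9 CPM under anti-PD-1, 10.3 CPM under anti-LIF, 12.2 CPM under combo and 39.4 CPM in control, and Gbp2 had 144, 157, 154 and 112 CPM in anti-PD-1, anti-LIF, combo and control.

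Over 49 sums of class and library from 14 classes, the mean log2 level of the 9 genes was most like that of Ifi47, another immunity-related GTPase, with r = 0.80 among 13351 genes ranked. Gbp6 (0.78), Tgtp1 (0.77), Hey1 (0.75), Magi1 (0.72) and Irf1 (0.72) came next. The points share libraries, depth and RNA of other classes, so these are descriptions only. Among the members themselves, Iigp1 and Irgm1 were the most alike pair (r = 0.79) and Gbp2 and Gbp7 the least (r = 0.21).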

How the data were processed

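Single-cell 3' RNA libraries were made with the SeekOne MM kit, per the labels' protocols, 1 library per group. The deposited matrices hold UMI counts per gene and barcode; the deposited barcode and feature lists hold names only. The mm10 build and Seurat 4.0.3 stand in the submitters' processing notes; the counter and cell caller are not given in the sources used here. Barcodes were dropped below 200 genes or above 20% mitochondrial UMIs. Each cell was classed by markers whose summed UMIs exceeded the rate in other classes (Poisson tail 0.01, at least 2 distinct markers, 2 times the score of any other class, 4 passes); the scoring and the removal of 9 markers were set after seeing the data. Cells in which no class reached that margin stayed ungated, which was the only treatment of doublets. A cell with markers of more than 1 class was thus kept where 1 class scored far enough ahead. A cell that passed the gland class was never called a cancer cell, also where its cancer cell score was higher. UMIs were summed per class and library, given as CPM, and compared as log2 ratios with a prior count of 0.5 added, for genes with at least 50 UMIs over both libraries; called means at least 2-fold. Intervals (exact Poisson, Clopper-Pearson or conditional, 95%) cover counting error only. Likeness was Pearson's r of log2(CPM + 10) over genes with at least 200 UMIs. All 9 genes were named, and other genes as members of the lists or as the largest changes within them. The 9 genes and the lists were chosen with earlier results of these data known. Gbp11, Gm12250, Mx1 and Mx2 were not analysed here. Part of the interferon gamma pathway list is not reported here. Scripts were tested on simulated data and used Python 3.11.15, numpy 2.4.6, scipy 1.17.1, scanpy 1.11.5 and pandas 2.3.3.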

Additional observations from a re-analysis of the deposited data

Results flagged for a closer look

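In host gland cells the median log2 ratio of the 9 GTPase genes to control was above 0 in each treated library, while in cancer cells it was below 0. In anti-PD-1 the median was 0.7207 in gland cells and -0.83 in cancer cells. In anti-LIF it was 1.645 in gland cells and -2.59 in cancer cells. In combo it was 0.6734 in gland cells and -2.66 in cancer cells. The interval of the gland median under anti-PD-1, -0.34 to 1.67, includes 0, and without the 1% of cells with most UMIs the combo median was 0.23 [-0.09 to 0.56]. The difference between the classes was not tested, since each group was 1 library. The gland values rest on 76 anti-PD-1, 168 anti-LIF, 191 combo and 133 control cells.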

How the results depend on the processing

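No paired analysis was possible because each group was 1 library and no result came from a test. No median in cancer cells, macrophages and monocytes or T cells changed sign under any alternative, while of the single genes in cancer cells Irgm2 under anti-PD-1 did so with thinning (0.21), at a mitochondrial limit of 10% (0.09) and in cluster 7 (0.02), and Gbp7 in cluster 7 (0.13). Of 105 medians 62 stayed within the counting interval of the main value. That interval belongs to the gene at the median, so its width depends on which gene that was. In cancer cells it was -3.05 to -2.31 under combo, from the sparse Gbp5, and -0.88 to -0.79 under anti-PD-1, from Iigp1. The count of 62 is thus no measure of stability. The other 43 medians follow, and 3 values in a row are those of anti-PD-1, anti-LIF and combo. With classes from Leiden clusters the cancer cell medians were -0.78 under anti-PD-1 and -2.27 under anti-LIF, and the macrophage medians -0.69, -1.46 and -1.75. A stricter gate gave cancer cells -0.89 under anti-PD-1 and -2.72 under anti-LIF. A mitochondrial limit of 10% gave cancer cells -0.76, -2.81 and -3.54, and T cells 0.68 under anti-LIF and 0.87 under combo; gland cells were then too few. Thinning gave cancer cells -0.76 under anti-PD-1, and macrophages -0.17 under anti-PD-1 and -1.39 under combo. Centring on all genes gave cancer cells -1.002 under anti-PD-1 and -2.79 under anti-LIF. Cancer cells without cell cycle UMIs gave -1.77 under anti-LIF, on 124 anti-LIF and 214 control cells.

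The alternatives that follow were chosen after seeing the data. Without the 1% of cells with most UMIs macrophages gave -1.38 under combo, and Gbp5 in gland cells of combo turned to -0.22. Cancer cells of cluster 0 gave -1.20, -1.69 and -1.92, of cluster 1 -0.73 under anti-PD-1 and -1.79 under anti-LIF, of cluster 2 -1.61, -2.69 and -3.10, and of cluster 7 -0.48, -1.34 and -1.14. Macrophages of cluster 5 gave -0.91, -1.84 and -2.28, of cluster 12 -0.67 under anti-LIF and -1.04 under combo, and of cluster 15 -0.75, -0.80 and -0.86, where Iigp1 turned to 1.17 under anti-LIF and 1.35 under combo. CD8 T cells gave 0.20 under combo. Less the cancer cell RNA read from Krt18, macrophages gave -0.95 under anti-LIF and -1.27 under combo, and T cells 0.73 under anti-LIF and 0.90 under combo. Over all alternatives, fibroblast medians lay between -0.94 and -0.32 under anti-PD-1, -0.84 and -0.52 under anti-LIF and -1.20 and -0.30 under combo, neutrophil medians between -1.54 and -0.72 under anti-PD-1, -2.41 and -1.26 under anti-LIF and -2.04 and -0.58 under combo, and gland medians between 0.39 and 0.77 under anti-PD-1, 1.45 and 1.75 under anti-LIF and 0.23 and 0.70 under combo. The endothelial median under anti-LIF changed sign once, to -0.25 with thinning. The cause of these shifts was not tested. Depth limits Gbp5 in gland cells, which rests on 8 UMIs under anti-LIF and 2 in control.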
